A study of Mus musculus with 15 samples.

Results

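The 49 genes described here encode the machinery that copies chromosomal DNA in S phase, together with enzymes that supply nucleotides and proteins that reassemble chromatin behind the fork. They were chosen by gene symbol, by a rule that uses no measured value, but with earlier results of these data known. All 49 were measured, out of 19937 genes tested, and where several probe sets carried a member's symbol alone, the brightest on average over the 15 arrays stood for it. They were divided by role into 12 origin licensing genes, 9 origin firing genes, 8 polymerase and primase genes, 10 clamp, clamp loader and Okazaki fragment genes, 6 genes of nucleotide supply and uracil removal, and 4 genes of chromatin assembly and maintenance methylation.

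The study profiled sorted bone marrow progenitors of pre-leukaemic mice carrying mutant alleles of Cebpa, the gene of the myeloid transcription factor C/EBPα, on Affymetrix mouse gene arrays. All mice were female, of strain C57BL/6, and carried a Cre transgene under the Mx1 promoter (written Mx1Ce in the label of the +/+ mice), and cells were taken 3 weeks after conditional knockout. The Mx1 promoter responds to interferon and is not restricted to myeloid cells. Pre-granulocyte-macrophage progenitors (preGMs; Lin-, Sca1-, cKit+, CD150-, CD41-, FcgRII-, Endoglin-) were profiled from Cebpa +/+ and fl/p30 mice, and the more mature granulocyte-macrophage progenitors (GMPs; Lin-, Sca1-, cKit+, CD150-, CD41-, FcgRII+) from fl/+, fl/BRM2 and fl/p30 mice. In these genotypes fl is the floxed allele that Cre removes. The p30 allele yields only the short isoform of the protein, and BRM2 is a mutant of its basic region with impaired repression of E2F. Each of the 5 groups held 3 arrays. Both fl/p30 groups were sorted from 1 set of 3 mice, numbered alike, so that replicate 1 of each is the same mouse. The control of the preGMs carried no floxed allele, so the controls of both stages differed in genotype as well as in stage.

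Before S phase, the origin recognition complex, Cdc6 and Cdt1 load the Mcm helicase onto origins, a step called licensing that geminin (Gmnn) blocks later in the cycle. The Cdc7 kinase and cyclin E with its kinase then help Cdc45 and the GINS complex to join the helicase, after which primase, the polymerases and their sliding clamp copy the DNA. Transcription of most of these genes is controlled by E2F factors as cells pass from G1 into S phase, and C/EBPα is known for restraining E2F in myeloid cells.

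The sequence around the start of these genes was examined because the genes share this known control. RefSeq promoter windows (mouse GRCm38.p6, from 250 bases before to 50 bases after an annotated start) were found for 40 of the 49 genes, in 50 windows. An E2F-like core (TTGGCGC or TTCCCGC, on either strand) stood in 24 of these 50 windows, or 48.0%, against 6.81% of all 32851 windows in the table. Of the 36 matches in the members' windows, 19 lay before the start and the rest at or after it. The CCAAT box (CCAAT, either strand) stood in 28 of the 50 windows against 37.4% of all, and the CHR element of mitotic promoters (TTTGAA, either strand) in 8 of the 50 against 17.9%. The members' windows thus held the E2F-like core and CCAAT more often than the table as a whole, while their share with a CHR was not above it. No test was run on these shares. Some genes contributed up to 3 overlapping or neighbouring windows, and a match says only that these letters are present. The stretches below cover the 150 bases before the start, 5′ to 3′ on the gene's strand, for genes on which the results below turn. Capitals mark the E2F-like core. Cdc45 and Tk1 are shown because their windows held no such match, and Cdc7 by the second of its 2 windows. These windows of Cdc7 overlap, and the only match of the first is also held by the second, so that site was counted in both. It lies after the annotated start of the first and outside the stretch shown. Of the 2 windows of Uhrf1 the one shown held the core and the other did not.
Uhrf1, chr17:56303187-56303336, plus strand: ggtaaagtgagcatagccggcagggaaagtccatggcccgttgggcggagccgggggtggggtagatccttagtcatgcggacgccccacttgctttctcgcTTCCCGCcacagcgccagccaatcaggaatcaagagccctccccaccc
Mcm6, chr1:128359706-128359855, minus strand: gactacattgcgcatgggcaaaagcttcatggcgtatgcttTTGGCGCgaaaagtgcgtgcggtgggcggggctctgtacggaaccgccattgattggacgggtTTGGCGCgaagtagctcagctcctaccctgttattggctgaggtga
Pola1, chrX:93632156-93632305, minus strand: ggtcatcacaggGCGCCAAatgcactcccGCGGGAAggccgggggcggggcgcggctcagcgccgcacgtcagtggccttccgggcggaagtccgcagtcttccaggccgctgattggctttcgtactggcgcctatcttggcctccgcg
Rrm1, chr7:102441545-102441694, plus strand: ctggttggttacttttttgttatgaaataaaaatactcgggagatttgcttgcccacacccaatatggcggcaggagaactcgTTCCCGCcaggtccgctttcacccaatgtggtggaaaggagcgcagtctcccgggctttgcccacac
Cdc6, chr11:98908001-98908150, plus strand: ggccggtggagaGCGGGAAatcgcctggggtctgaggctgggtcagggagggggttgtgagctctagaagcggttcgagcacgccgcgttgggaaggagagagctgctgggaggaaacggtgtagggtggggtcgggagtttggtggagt
Cdc7, chr5:106964411-106964560, plus strand: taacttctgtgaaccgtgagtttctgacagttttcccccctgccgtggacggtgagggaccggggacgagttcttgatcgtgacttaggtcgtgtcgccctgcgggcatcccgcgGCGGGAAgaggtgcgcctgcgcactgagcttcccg
Cdc45, chr16:18811973-18812122, minus strand: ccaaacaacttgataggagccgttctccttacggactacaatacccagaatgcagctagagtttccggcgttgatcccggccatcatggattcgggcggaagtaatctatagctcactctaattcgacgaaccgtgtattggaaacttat
Tk1, chr11:117826015-117826164, minus strand: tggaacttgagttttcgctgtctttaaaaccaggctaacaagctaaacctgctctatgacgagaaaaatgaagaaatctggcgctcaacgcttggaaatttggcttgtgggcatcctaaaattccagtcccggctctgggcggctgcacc

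Mean log2 expression of the members over the 15 arrays ran from 6.55 for Ung, a uracil glycosylase, to 12.76 for Pcna, the sliding clamp, and the median of these means was 9.08 against 6.35 for all genes. The median of each array over all probe sets lay between 6.03 and 6.23, so Ung lay close to the level of the typical probe set. The sorted stages differed in an Fc receptor gene. Fcgr3 encodes a receptor of the same family as FcgRII, which the labels name in the gates. It was higher in GMPs than in preGMs by 2.98 ± 0.20 (log2 difference ± SE) between the controls and by 2.35 ± 0.20 in fl/p30. The list of 8 GMP and primary granule genes that holds Fcgr3 was mixed between the controls. At an adjusted p under 0.05 by limma, 1 of the 8 was higher in GMPs and 2 were lower, with 5 above 0 and 3 below. In fl/p30 1 was higher and 0 were lower, with 7 above 0.

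To compare arrays over all members, each value was taken as a deviation from that gene's mean over the 15 arrays and averaged over the 49 genes. On the log2 scale this level was 0.26, 0.26 and 0.30 in preGM +/+ against -0.41, 0.00 and -0.06 in preGM fl/p30. Among the GMPs, the fl/+ arrays stood at 0.27, -0.06 and 0.02. The fl/BRM2 arrays stood at -0.01, -0.10 and 0.05, and those of fl/p30 at -0.58, -0.04 and 0.13. The preGM +/+ arrays lay together and above every preGM fl/p30 array, whereas the 3 GMP groups overlapped.

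Both lowest arrays came from 1 mouse, that of replicate 1 in the fl/p30 groups. Its GMP array held the lowest of the 15 values for 26 of the 49 members, against 8.85% of all genes, and its preGM array for another 12 members, against 8.72% of all genes. Within their own groups, its preGM array was the lowest of 3 for 45 members and its GMP array for 47 members, where about 1 in 3 genes overall had their lowest value in these arrays (34.1% and 32.0%). Mitotic genes were low in the same arrays. The mean deviation of 23 G2 and mitosis genes was -0.53 in the preGM array and -0.93 in the GMP array of that mouse, and lay between -0.17 and 0.41 in the other 13 arrays. How far the share of cells in cycle differed between these sorts was not tested. In sorted bulk samples, fewer cells in S phase and less transcript per cell cannot be told apart.

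**Figure D1:**
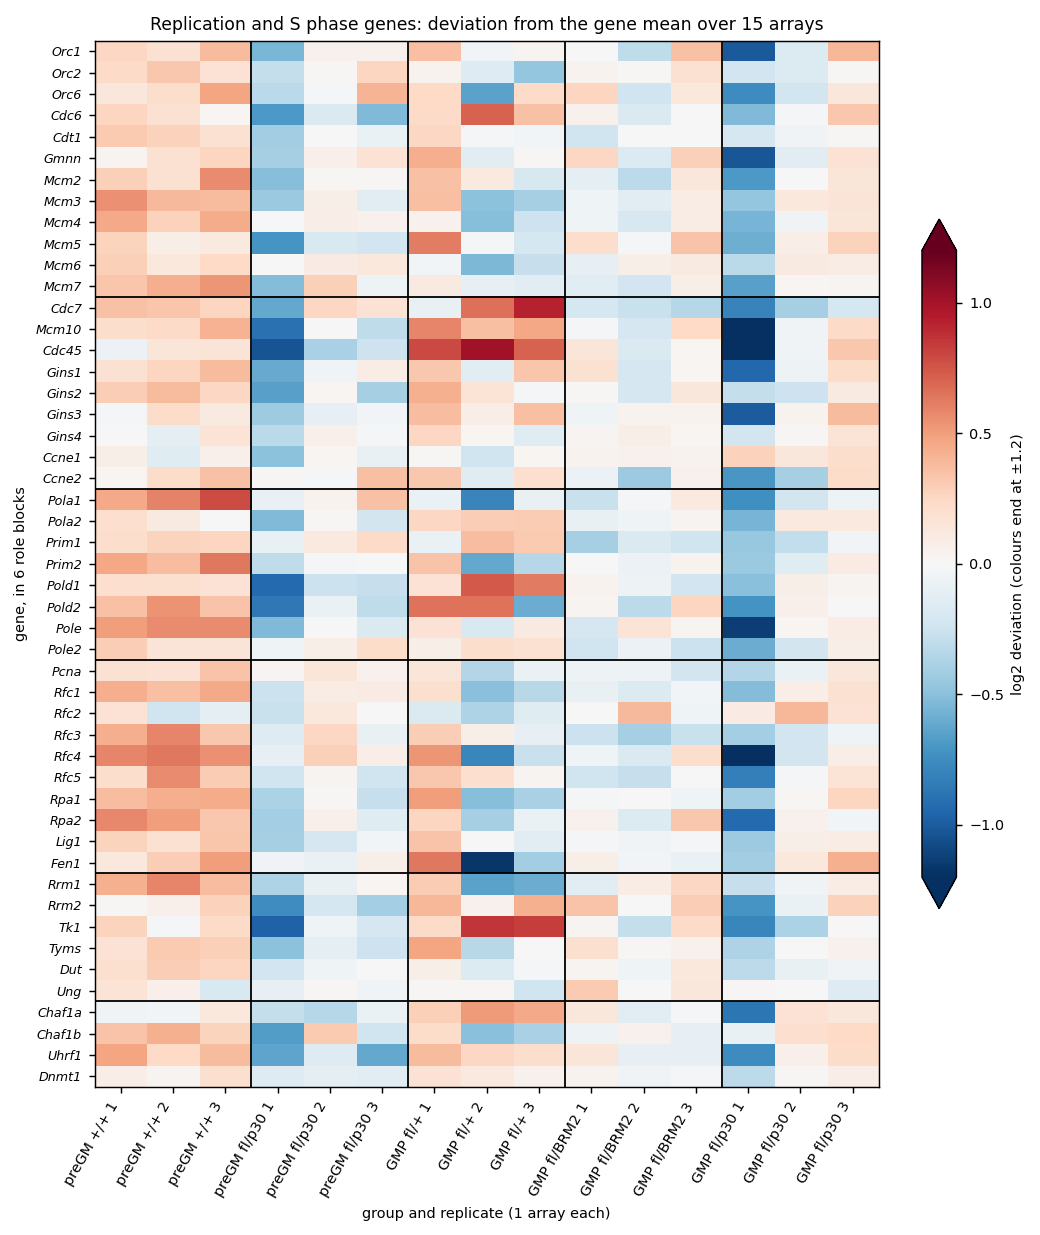
Log2 deviation of each of the 49 genes (rows, in 6 role blocks) from its mean over the 15 arrays (columns, 3 per group); red is above and blue below the gene's mean, and colours end at the limits of the bar. The preGM +/+ columns are mostly red, and the first fl/p30 column of each stage, both from 1 mouse, is mostly blue.

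**Figure D2:**
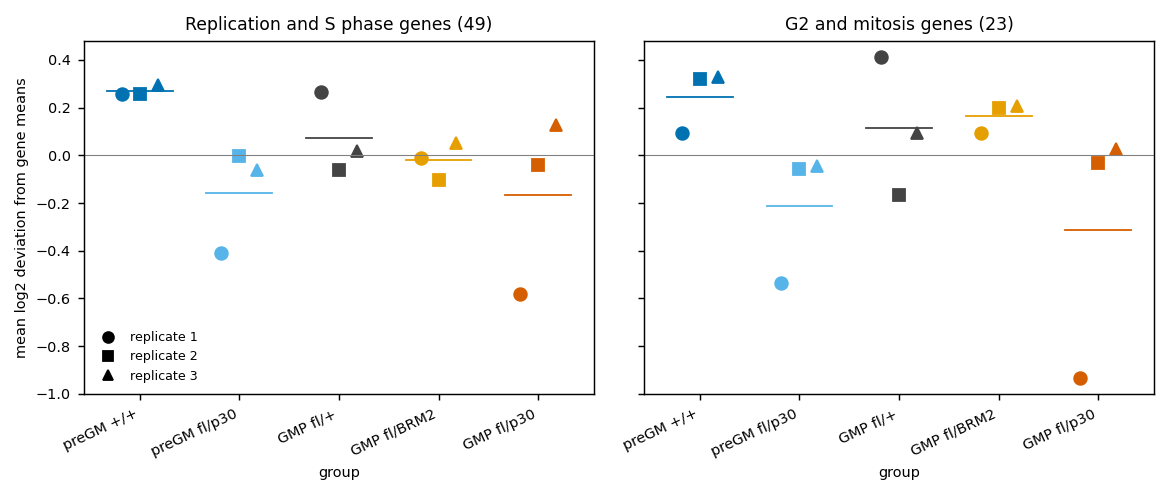
Mean log2 deviation per array (vertical axis) of the 49 replication and S phase genes (left) and of 23 G2 and mitosis genes (right) in the 5 groups; symbols are replicates and horizontal lines are group means. On the left the preGM +/+ arrays lie between 0.26 and 0.30 and all preGM fl/p30 arrays lie lower, and in both panels replicate 1 of each fl/p30 group is the lowest of its group.

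The fl/p30 genotype in preGMs was examined by comparing preGM fl/p30 with preGM +/+, which keeps both normal alleles. In this contrast the p30 allele and the removal of the floxed allele cannot be told apart. Of the 49 members, 48 had a log2 difference below 0, as did 44.8% of all genes, and the median difference of the members was -0.46, against 0.03 over all genes. In 36 members every fl/p30 array lay below every +/+ array, which was the case for 12.8% of all genes. No member had all its fl/p30 arrays above, as 12.4% of all genes did. By limma's test with Benjamini-Hochberg adjustment over all genes, 0 of 49 members passed at an adjusted p under 0.05, in a comparison in which 1.68% of genes passed (0.647% higher and 1.03% lower). At an unadjusted p under 0.05 there were 27 members, against 14% of all genes. The only member not below 0 was Rfc2, a subunit of the clamp loader, with a difference of 0.01 ± 0.15, whose sign was negative when the arrays were centred on their medians.

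Uhrf1, which recruits the maintenance methyltransferase to newly copied DNA, came closest to the threshold (probe set 10446074). Its level was 10.87, 10.64 and 10.78 in preGM +/+ and 9.76, 10.24 and 9.78 in preGM fl/p30, a 1.79-fold lower mean (log2 difference -0.84 ± 0.21, adjusted p = 0.0595). The groups did not overlap, and fl/p30 replicate 2 was the nearest to the controls. Without that array Uhrf1 passed (-0.99, adjusted p = 0.0493). It did not pass when any other single array of the comparison was left out (highest adjusted p = 0.236). Without both arrays of the mouse of replicate 1 it passed (-0.75, adjusted p = 0.0347). The GMP array of that mouse enters here through the pooled spread alone, and without its preGM array only, Uhrf1 had the same difference and did not pass. The other 3 genes of its role also lay lower in fl/p30, with differences of -0.55 ± 0.22 for Chaf1b and -0.25 ± 0.21 for Chaf1a, subunits of the chromatin assembly factor, and -0.24 ± 0.11 for Dnmt1, the maintenance methyltransferase.

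All 12 licensing genes lay below 0, from -0.62 to -0.14, with a median of -0.42 and with separate arrays for 8. Cdc6, which loads the helicase with the origin recognition complex, lay between 8.85 and 9.08 in preGM +/+ and was 8.13, 8.65 and 8.29 in fl/p30 (-0.62 ± 0.20, adjusted p = 0.155). Mcm3, a helicase subunit, was 10.42, 10.26 and 10.26 in +/+ and 9.43, 9.94 and 9.74 in fl/p30 (-0.61 ± 0.22, adjusted p = 0.215). Of the other helicase subunits, Mcm6 had a difference of -0.14 ± 0.14 and overlapping arrays. The licensing inhibitor Gmnn had a difference of -0.21 ± 0.26, and its groups overlapped.

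The 9 firing genes also lay below 0, with a median of -0.38 and separate arrays for 6. Gins2, a GINS subunit, was 10.13, 10.22 and 10.08 in +/+ and 9.18, 9.86 and 9.43 in fl/p30 (-0.65 ± 0.17, adjusted p = 0.081). Mcm10, which acts in helicase activation, was 8.61, 8.63 and 8.82 in +/+ and 7.50, 8.40 and 8.09 in fl/p30 (-0.69 ± 0.30, adjusted p = 0.328). The +/+ arrays were close to each other for both genes, and fl/p30 replicate 1 was the lowest. At the other end were the cyclins E, with differences of -0.18 ± 0.13 for Ccne1 and -0.08 ± 0.21 for Ccne2, both with overlapping arrays.

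All 8 polymerase and primase genes lay below 0, with a median of -0.55 and separate arrays for 5. Pold2, a small subunit of polymerase delta, was 9.22, 9.41 and 9.21 in +/+ and 8.01, 8.79 and 8.57 in fl/p30 (-0.83 ± 0.31, adjusted p = 0.249). Pole, the catalytic subunit of the leading strand polymerase epsilon, was 8.82, 8.89 and 8.88 in +/+ and 7.79, 8.32 and 8.15 in fl/p30 (-0.78 ± 0.25, adjusted p = 0.169). Its partner Pole2 differed by -0.12 ± 0.14 with overlapping arrays. The difference between these 2 subunits was not tested.

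Of the 10 clamp, clamp loader and Okazaki fragment genes, 9 lay below 0 with all arrays separate, and the median was -0.46. Rpa1, which coats single-stranded DNA, was 9.31, 9.37 and 9.39 in +/+ and 8.56, 8.96 and 8.66 in fl/p30 (-0.63 ± 0.22, adjusted p = 0.212). Pcna had a difference of -0.16 ± 0.14, and its arrays did not overlap. A second probe set of Pcna (10487930) gave a difference of -0.09 with overlapping arrays, and which copy of the sequence each set reads is not known here. Among the 6 genes of nucleotide supply and uracil removal the median was -0.56. Rrm1, the large subunit of ribonucleotide reductase, was 10.96, 11.11 and 10.90 in +/+ and 10.16, 10.43 and 10.55 in fl/p30 (-0.61 ± 0.21, adjusted p = 0.203). The thymidylate synthase Tyms differed by -0.54 ± 0.18, and Ung by -0.06 ± 0.12 with overlapping arrays. The thymidine kinase gene Tk1 differed by -0.57, and its second probe set (10393431) by -0.88, with separate arrays in both sets.

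Other settings moved the count of calls in preGMs. A fit of the 6 preGM arrays alone called 12 members lower (Uhrf1, Pole, Rpa1, Prim2, Rrm1, Rpa2, Pold2, Tyms, Mcm3, Cdc6, Rfc4 and Gins2), where 3.4% of all genes were called lower. Array weights in limma called 13 members lower, where 3.51% of all genes were. The within-group SD over all genes (root mean square) was 0.165 and 0.211 in the preGM groups and up to 0.319 in the GMP groups, which the main fit pools. Without preGM fl/p30 replicate 1 the median was -0.32.

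Markers of other cells and stages moved in the same comparison, and their part in it was not tested. Of 10 secondary granule and neutrophil genes, 3 fell (Ngp, Mmp8 and Ltf), and the mean deviation of the list ran from 0.27 to 1.23 in preGM +/+ and from -1.09 to -0.87 in fl/p30. Of 8 GMP and primary granule genes 1 fell, the receptor Csf1r by 2.04, with list means from -0.10 to 0.14 in +/+ and from -1.24 to -0.84 in fl/p30. Of 7 stem and multipotent progenitor genes 2 fell, Flt3 by 1.79 and Hlf by 1.17, with list means from 0.62 to 0.84 and from 0.12 to 0.47. Of 7 erythroid genes 0 passed (1 at an unadjusted p under 0.05), but all arrays of fl/p30 lay above those of +/+ for 7 of 7, with list means from -0.14 to 0.04 in +/+ and from 0.32 to 0.44 in fl/p30. Of 6 megakaryocyte genes 0 passed (2 at such a p) and 6 lay above 0, with list means from -0.38 to -0.02 and from 0.11 to 0.55. The list of 8 B lymphoid genes stood at 1.99 in preGM +/+ replicate 3, and at -0.09 and 0.04 in the other +/+ arrays. Without that array all 49 replication members lay below 0 and their median was -0.43.

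The fl/p30 genotype was also examined at the GMP stage, with fl/+ as the control, in which the floxed allele is removed too. Here 3 of 49 members fell and 0 rose, in a comparison in which 6.06% of all genes passed, 4.69% higher and 1.37% lower. They were Cdc45, which joins the helicase when origins fire, the origin firing kinase gene Cdc7, and Tk1, the thymidine kinase of S phase. Of the 49 members 36 lay below 0, as did 58.1% of all genes, and their median was -0.235, against -0.04 over all genes. At an unadjusted p under 0.05 there were 14 members, against 20.0% of all genes. Every fl/p30 array lay below every fl/+ array for 7 members (Cdc45, Cdc7, Chaf1a, Mcm10, Pola2, Pold1 and Tk1), against 8.27% of all genes. Every fl/p30 array lay above for 2 members, Ccne1 and Rfc2, against 9.16%. Without GMP fl/p30 replicate 1, 27 members lay below 0, as did 60.6% of all genes. In that setting all fl/p30 arrays lay below for 7 members, against 19.0% of all genes.

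Cdc45 (probe set 10438378) was 9.81, 10.02 and 9.72 in GMP fl/+ and 7.66, 8.98 and 9.33 in GMP fl/p30. All control arrays were higher than all mutant arrays, and the mutant spread over more than 1 log2 unit. Its mean fell by 1.19 ± 0.32 on the log2 scale (2.28-fold, adjusted p = 0.0403), and the difference was -0.70 without GMP fl/p30 replicate 1.

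Cdc7 (probe set 10523802) was 7.81, 8.55 and 8.81 in fl/+ and 7.09, 7.50 and 7.68 in fl/p30, and fell by 0.97 ± 0.25 (1.96-fold, adjusted p = 0.034). Control replicate 1 lay nearest to the mutants. Tk1 (probe set 10582809) was 9.18, 9.80 and 9.78 in fl/+ and 8.16, 8.56 and 8.94 in fl/p30, and fell by 1.03 ± 0.25 (2.04-fold, adjusted p = 0.0265). A second probe set of Tk1 (10393431) read 8.56, 8.77 and 8.44 in fl/+ and 7.60, 7.65 and 7.97 in fl/p30, a difference of -0.85. Both sets of Tk1 had separate arrays, and which copy of the sequence each set reads is not known here.

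The 3 calls rested on few arrays. None of them passed when replicate 2 or replicate 3 of the controls was left out, or when replicate 1 or replicate 2 of the mutants was (highest adjusted p = 0.15). None passed in a fit of the 6 arrays alone, where 0.0702% of all genes were called lower. Without GMP fl/p30 replicate 3, 8 members passed as lower, against 2.71% of all genes. Without both arrays of the mouse of fl/p30 replicate 1, Cdc45 was the only member called lower (-0.70, adjusted p = 0.0294), where 0.356% of all genes were, and the median of all members was -0.01. With array weights the median was -0.05. These weights were 0.33, 6.02 and 0.79 for GMP fl/p30 replicates 1, 2 and 3, so the weighted mean of this group rested mostly on replicate 2. With arrays centred on their medians Cdc45 did not pass (adjusted p = 0.0554).

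By role, the firing genes had a median of -0.43, with 2 of 9 called, and the polymerase and primase genes one of -0.39, with 0 of 8 called. Pold1, the catalytic subunit of polymerase delta, was 8.19, 8.75 and 8.64 in fl/+ and 7.51, 8.08 and 8.05 in fl/p30 (-0.64 ± 0.20, adjusted p = 0.0742). The primase subunit Prim1 differed by -0.46 ± 0.14 (adjusted p = 0.0721), with fl/+ replicate 1 inside the mutant range. The licensing genes had a median of -0.18 and the clamp and Okazaki fragment genes one of -0.08, with 0 of 12 and 0 of 10 called.

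The members with the highest differences were Rfc2, Fen1 and Chaf1b, none of which passed. Rfc2 was 9.46, 9.26 and 9.48 in fl/+ and 9.73, 10.03 and 9.81 in fl/p30 (0.46 ± 0.15, adjusted p = 0.0993). Fen1, the nuclease that trims Okazaki fragments, was 8.21, 6.42 and 7.16 in fl/+ and 7.16, 7.72 and 8.01 in fl/p30 (0.37 ± 0.32). The 3 controls of Fen1 spanned the whole mutant range, and its difference was -0.06 without GMP fl/+ replicate 2. For Chaf1b the difference was 0.34 ± 0.22, with overlapping arrays.

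The GMP controls differed among themselves in replication genes. GMP fl/+ replicate 1 was above replicates 2 and 3 for Rrm1 (10.83, 9.89 and 9.93) and below them for Cdc7. Without replicate 1, 5 members fell and 2 rose (Fen1 and Rrm1) in fl/p30 against fl/+, where 4.64% of all genes fell and 10.8% rose. Beside the comparison, 5 of 10 secondary granule and neutrophil genes fell, with list means from 0.61 to 1.22 in fl/+ and from -0.88 to 0.40 in fl/p30. Of 7 erythroid genes 3 rose, with list means from -0.997 to -0.73 and from -0.08 to 0.47. Of the other lists, 1 of 6 megakaryocyte genes, 2 of 7 T and NK genes and 0 of 7 mature macrophage genes rose. Of 7 stem and multipotent progenitor genes 2 rose and 1 fell. Of 8 GMP and primary granule genes 0 passed. Their list means ran from 0.56 to 1.05 in fl/+ and from -0.72 to 0.84 in fl/p30, where replicate 1 was the lowest. The part of these markers in the replication values was not tested.

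**Figure D3:**
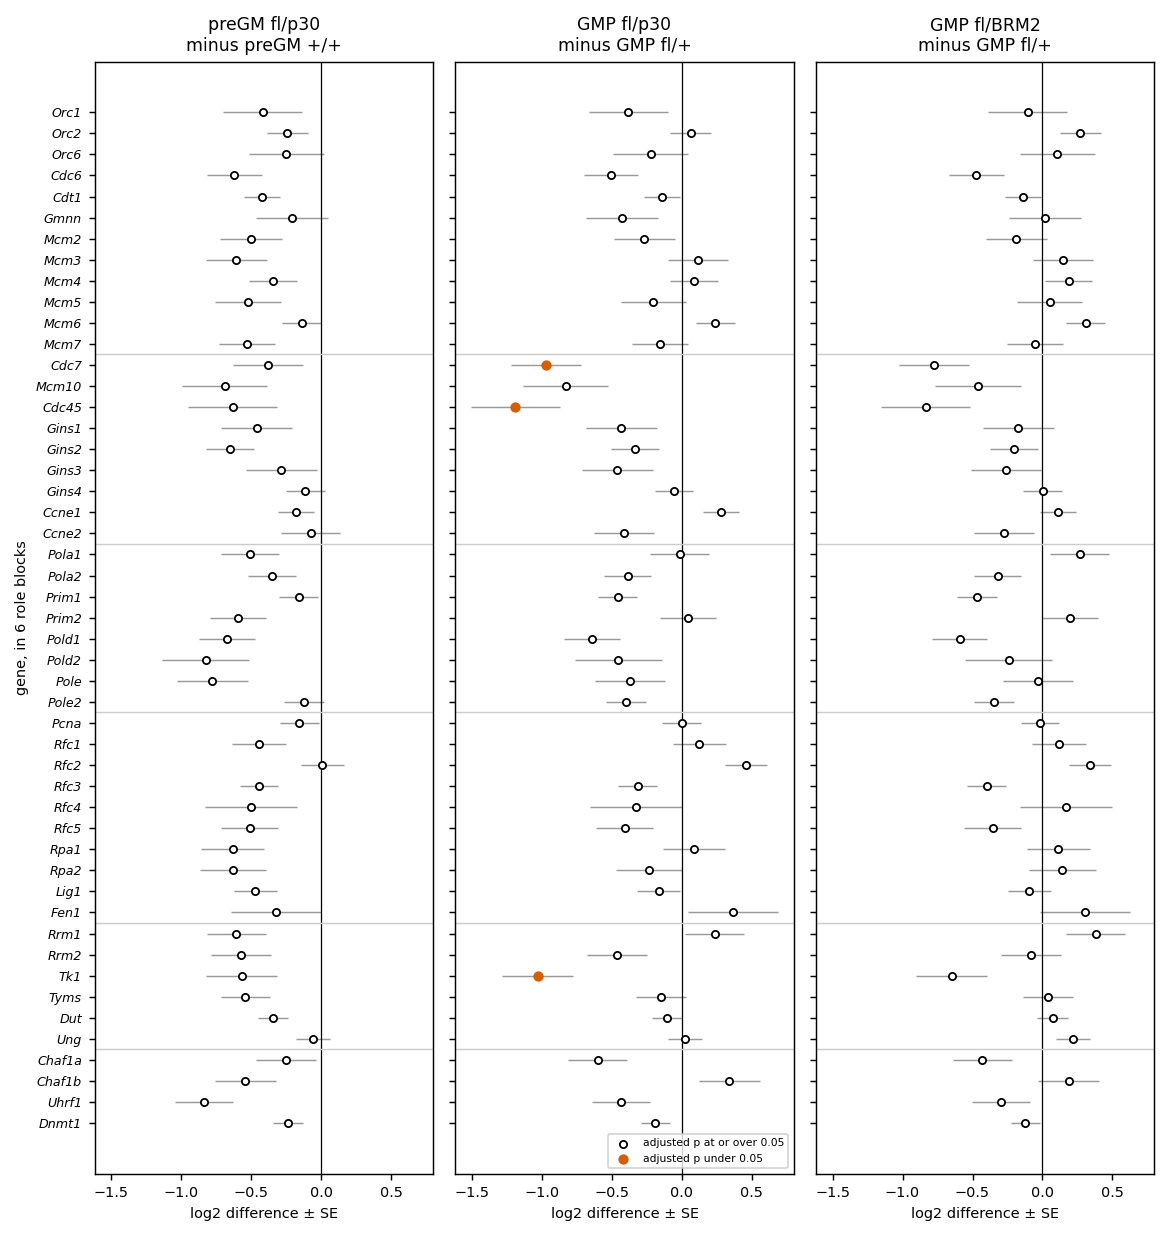
Log2 difference ± SE (horizontal axis) of each of the 49 genes in preGM fl/p30 against +/+, GMP fl/p30 against fl/+ and GMP fl/BRM2 against fl/+ (3 arrays per group); filled points passed an adjusted p of 0.05, and both GMP panels share their control arrays. In preGMs 48 of 49 genes lie left of 0 and none is filled, and in GMP fl/p30 Cdc7, Cdc45 and Tk1 are filled.

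GMPs with the BRM2 allele were set against these fl/+ GMPs too, so its values share the control arrays with those above. By limma, 0 of 49 members passed, where 2.53% of all genes did (1.89% higher and 0.642% lower), and 10 members had an unadjusted p under 0.05, against 15% of all genes. Of the members 27 lay below 0 (54.5% of all genes), and the median was -0.06, against -0.02 over all genes. For 14 members every BRM2 array lay below every control array, against 8.51% of all genes, and for 2, Ccne1 and Rfc2, every array lay above, against 6.74%.

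The lowest differences were those of Cdc45, Cdc7 and Tk1. Cdc45 was 9.16, 8.84 and 9.04 in fl/BRM2, below its 3 controls (-0.83 ± 0.32, adjusted p = 0.22). The SE pools the spread of all groups. Without both arrays of the fl/p30 replicate 1 mouse, which are in neither group compared, Cdc45 passed with the same difference (SE 0.13, adjusted p = 0.00593). Cdc7 was 7.68, 7.62 and 7.55 in fl/BRM2, a narrow range below all controls (-0.77 ± 0.25, adjusted p = 0.134). Tk1 was 8.98, 8.65 and 9.18, and its highest array overlapped the lowest control (-0.65 ± 0.25, adjusted p = 0.23). Its second probe set (10393431) was 7.87, 7.86 and 8.18 in fl/BRM2, below all 3 controls, a difference of -0.62. The highest differences were 0.38 ± 0.21 for Rrm1, 0.34 ± 0.15 for Rfc2 and 0.31 ± 0.14 for Mcm6. Array weights, which give GMP fl/+ replicates 1 and 2 little weight, called 5 members lower, Cdc45 among them (adjusted p = 0.0442), and 2 higher, where 4.26% of all genes were lower and 6.71% higher. Without GMP fl/+ replicate 1 there were 3 lower (3.48% of all genes) and 2 higher (7.64%), and Rrm1 then differed by 0.69 (adjusted p = 0.0106). Beside these values, 4 of 7 erythroid genes rose, with list means from -0.05 to 0.68 in fl/BRM2, and 1 of 10 secondary granule genes fell (Camp). Their part was not tested.

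The mutants were also compared with each other. Between GMP fl/p30 and GMP fl/BRM2, 0 of 49 members passed in limma's test and 0 had an unadjusted p under 0.05, where 0.00502% of all genes passed and 3.45% had such a p. Of the members 41 lay lower in fl/p30, as did 52.3% of all genes, with a median of -0.14. Without GMP fl/p30 replicate 1, 15 members lay lower and the median was 0.09, so the sign of the median depended on that array. The largest differences were -0.49 ± 0.33 for Rfc4, -0.45 ± 0.26 for Gmnn and -0.38 ± 0.21 for Rrm2, and the highest was 0.17 ± 0.13 for Ccne1. All fl/p30 arrays lay below for 1 member (Orc2), against 3.66% of all genes, and above for 1 (Ccne1), against 4.67%. Ccne1 was 7.72 in each fl/BRM2 array and 7.96, 7.82 and 7.89 in fl/p30, so its arrays were separate although the difference did not pass.

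**Figure D4:**
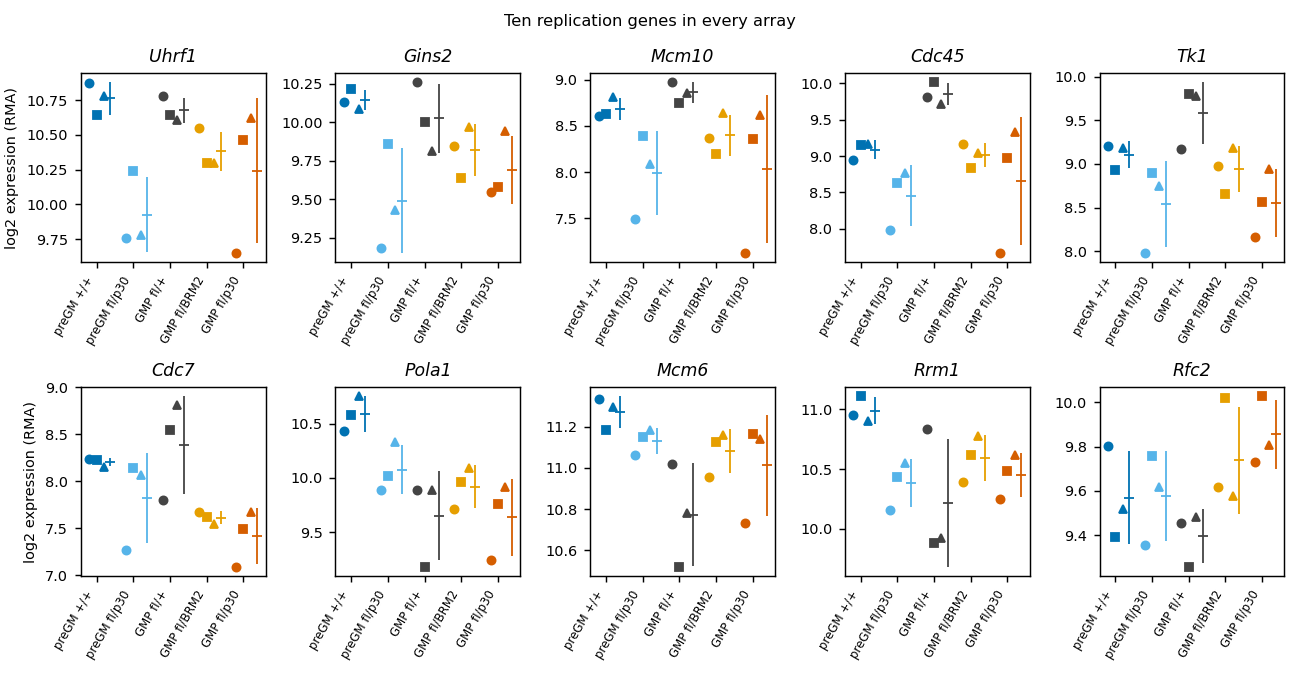
Log2 expression of 10 genes in every array (vertical axes, each panel on its own scale) by group; circles, squares and triangles are replicates 1, 2 and 3, and the bar beside them is the group mean ± SD. For Uhrf1 and Gins2 the preGM fl/p30 arrays lie below all preGM +/+ arrays, for Cdc45 the GMP fl/+ arrays lie above all others, and for Pola1 the preGM +/+ arrays do.

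The step from preGM to GMP was examined in the controls and in fl/p30. Between the controls, whose genotypes also differ, 5 of 49 members were lower in GMP fl/+ than in preGM +/+ at an adjusted p under 0.05 and 0 were higher, where 10.2% of all genes passed, 6.02% lower and 4.19% higher. At an unadjusted p under 0.05 there were 17 members, against 31.7% of all genes. Of the members 37 lay below 0 (39.1% of all genes), with a median of -0.17, against 0.08 over all genes. All GMP arrays lay below all preGM arrays for 16 members (12.9% of all genes) and above for 3, Cdc45, Chaf1a and Pola2 (21.1%). The 5 were Pola1, Prim2, Mcm4, Mcm6 and Rrm1, of which the first 2 encode subunits of the polymerase alpha and primase complex and the next 2 subunits of the helicase.

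Pola1, the catalytic subunit of polymerase alpha (probe set 10605674), was 10.43, 10.57 and 10.75 in preGM +/+ and 9.89, 9.18 and 9.89 in GMP fl/+, and fell by 0.93 ± 0.21 (1.91-fold, adjusted p = 0.0159). All GMP arrays lay below all preGM arrays, and GMP fl/+ replicate 2 was the lowest. Rrm1 fell by 0.77 ± 0.21 (adjusted p = 0.0347), and its GMP values of 10.83, 9.89 and 9.93 put replicate 1 close to the preGM range. Prim2 fell by 0.69 ± 0.20, Mcm4 by 0.63 ± 0.17 and Mcm6 by 0.50 ± 0.14 (adjusted p = 0.0431, 0.0329 and 0.0382). The opposite end was Cdc45, which was 8.94, 9.16 and 9.17 in preGM +/+ and higher in every GMP fl/+ array (0.76 ± 0.32, adjusted p = 0.124).

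The number of members lower in GMPs depended on single arrays. It was 14 without GMP fl/+ replicate 1, where 13.5% of all genes were lower. It was 1 (Pola1) without GMP fl/+ replicate 3 or preGM +/+ replicate 1 (4.25% and 2.22% of all genes), and 0 without GMP fl/+ replicate 2 or preGM +/+ replicate 2 or 3 (2.75%, 2.91% and 2.77%). Without both arrays of the fl/p30 replicate 1 mouse, which enter through the pooled spread alone, 10 members were lower (7.06% of all genes) and Cdc45 and Chaf1a were higher (6.91%). A fit of the 6 control arrays alone called 0 members lower and Cdc45 higher (adjusted p = 0.0249), where 2.52% of all genes were lower and 1.22% higher.

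In fl/p30, where both stages came from the same animals, 0 of 49 members passed between GMP and preGM by limma, where 0.642% of all genes passed (0.356% higher and 0.286% lower). At an unadjusted p under 0.05 there were 3 members, against 12.4% of all genes. The members were split evenly around 0, with 25 below (44.4% of all genes) and a median of 0.00. The difference nearest to the threshold was that of Ccne1, which was 7.19, 7.70 and 7.59 in preGM fl/p30 and higher in each GMP fl/p30 array (0.39 ± 0.13, adjusted p = 0.203). It was the only member with all arrays above, against 9.44% of all genes. The main fit took no account of the pairing by animal. With animal as a block 0 members passed too, where 1.84% of all genes were higher and 1.58% lower. Without GMP fl/p30 replicate 1 the median of the members was 0.23, with 11 below 0 (49.9% of all genes). Without preGM fl/p30 replicate 1, from the same mouse, it was -0.12, with 34 below 0 (40.8%). Each of these leave-outs removes only 1 array of that mouse and so breaks its pair.

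Whether the p30 difference depended on the stage was tested as the GMP difference minus the preGM difference, a contrast that also carries the unlike controls. By limma, 0 of 49 members passed, where 0.00502% of all genes did, and 6 members had an unadjusted p under 0.05, against 13.1% of all genes. Of the members 38 were above 0 and 11 below, where 56.4% of all genes were below, with a median of 0.24, against -0.05 over all genes. The highest values were 0.88 ± 0.31 for Chaf1b and 0.84 ± 0.30 for Rrm1 (adjusted p = 0.268 and 0.275), and the lowest was -0.59 ± 0.35 for Cdc7. Without GMP fl/+ replicate 1 there were 6 members above 0 that passed (5.52% of all genes), and array weights gave 7 above and 1 below (6.65% and 3.34%).

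Other genes of the pathway were read from lists chosen by function, with earlier results of these data known. In preGM fl/p30, 3 of 10 E2F and DP factors fell, and they were E2f6 (by 0.76 ± 0.14, adjusted p = 0.0144), E2f8 (by 0.69 ± 0.14, adjusted p = 0.0249) and E2f7 (by 0.63 ± 0.15, adjusted p = 0.049). These 3 encode the members of the family that act as repressors without the retinoblastoma protein. E2f8 was 10.44, 10.47 and 10.32 in preGM +/+ and 9.39, 9.94 and 9.82 in fl/p30, with separate arrays. The activator gene E2f1 differed by -0.12 ± 0.13 and E2f2 by -0.19 ± 0.14. In GMP fl/p30 against fl/+ 1 of 10 fell, E2f4, which was 8.69, 9.55 and 8.69 in fl/+ and 8.09, 8.32 and 8.36 in fl/p30 (by 0.72 ± 0.19, adjusted p = 0.0349).

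Of 17 measured G1 to S control genes, 2 rose in GMP fl/p30 against fl/+ and none fell. Rbl2, a pocket protein that holds E2F targets silent in resting cells, was 8.39, 7.92 and 8.07 in fl/+ and 9.63, 9.26 and 9.04 in fl/p30 (1.18 ± 0.16, adjusted p = 0.000541). The inhibitor of cyclin D kinases Cdkn2d rose by 0.66 ± 0.15 (adjusted p = 0.0176). In fl/BRM2 the same control arrays gave rises of 0.86 ± 0.16 for Rbl2 and 0.64 ± 0.15 for Cdkn2d. In preGM fl/p30 1 of the 17 fell, the cyclin D gene Ccnd1, which was 8.40, 8.34 and 8.64 in +/+ and 7.16, 7.33 and 7.60 in fl/p30 (by 1.10 ± 0.15, adjusted p = 0.00274). Ccnd1 also fell from preGM +/+ to GMP fl/+, by 1.48 ± 0.15, and 3 further genes of the list fell there (Cdkn2c, Cdk4 and Rbl2).

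Of 34 other replication genes, 1 fell in preGM fl/p30, Mcmbp, which binds Mcm subunits (by 0.60 ± 0.12, adjusted p = 0.0266), and 27 lay below 0, with a median of -0.15. In GMP fl/p30 Samhd1, which degrades nucleotides, rose by 0.64 ± 0.12 (adjusted p = 0.00489), and Chtf18, of an alternative clamp loader, fell by 0.53 ± 0.13 (adjusted p = 0.0301). Samhd1 rose in fl/BRM2 as well (0.49 ± 0.12, adjusted p = 0.0427). Of 10 replication checkpoint genes none passed between mutants and controls, where 1 to 3 had an unadjusted p under 0.05, and Chek1, the kinase that restrains late origins, was lower in GMP fl/+ than in preGM +/+ (by 1.03 ± 0.17, adjusted p = 0.00273).

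Of 23 measured G2 and mitosis genes 0 passed in limma's test in any of the 7 comparisons. All 23 lay below 0 in preGM fl/p30 (median -0.49, with 10 at an unadjusted p under 0.05), and 22 did in GMP fl/p30 (median -0.51, with 9). In fl/BRM2 9 of 23 lay below 0, with a median of 0.07 and 0 at such a p. In GMP fl/p30 against fl/BRM2 all 23 lay below 0 (median -0.50), 9 at such a p and 12 with separate arrays. The lowest in both fl/p30 comparisons was Aurkb, a mitotic kinase, with -0.89 ± 0.29 in preGMs (adjusted p = 0.173) and -1.03 ± 0.29 in GMPs (adjusted p = 0.0521). Mitotic genes thus lay low together with the replication genes in preGM fl/p30, and replicate 1 had the lowest mean of the list in both fl/p30 groups.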

How the data were processed

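The authors deposited log2 expression values per probe set for 15 arrays, made with affy and RMA per the submitters' processing notes, with versions not given in the sources used here. Of 34760 probe sets, 21640 had 1 gene symbol, 1321 had several and 11799 were unnamed. Only the first were used, with 1 probe set per gene, the one of highest mean. The number of arrays limits the precision.

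Means of the 5 groups were fitted over all 15 arrays with limma 3.58.1 in R 4.3.3 (lmFit and eBayes), without covariates, for 7 comparisons. Adjustment was by Benjamini-Hochberg over all 19937 genes, and a call is an adjusted p under 0.05. The script was tested on simulated data. The fl/p30 samples of both stages came from the same animals, and their deviations from the group means correlated by 0.33, 0.32 and 0.12 within an animal and by -0.31 to 0.15 between animals. The pairing comes from the animal numbers in the labels. Animal was used as a random block in an alternative.

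Genes named in the text were the members called in any comparison, the 3 highest and 3 lowest in each comparison between genotypes within a stage, the 2 brightest and 2 dimmest, and up to 4 called genes of each other list. Further members were named after their values were seen, to show the ends of a role's range or subunits of 1 complex. The members and lists were chosen with earlier results of these data known. Alternatives were the mean over probe sets, a filter on dim genes (below 6.35), a trended prior, array weights, only the arrays compared, replicate number or animal as a block, median centring, and leaving out each array. RefSeq promoter windows (GRCm38.p6) were searched for exact motifs on both strands.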

Additional observations from a re-analysis of the deposited data

How the results depend on the processing

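The median of the members in preGM fl/p30 against +/+ stayed below 0 under every alternative run. With array weights the median was -0.05 in GMP fl/p30 against fl/+, 0.02 in fl/BRM2 against fl/+ and 0.06 between the fl/p30 stages, the last 2 of opposite sign to the main values of -0.06 and -0.003. Counts of calls moved more, among all genes too. Array weights gave 3 higher and 6 lower in GMP fl/p30 against fl/+, 2 and 5 in GMP fl/BRM2 against fl/+, 13 lower in preGM fl/p30 against +/+, 2 and 2 in GMP against preGM fl/p30, 1 and 14 in GMP fl/+ against preGM +/+, and 7 and 1 for the stage dependence. With only the arrays compared, the calls were 0 lower in GMP fl/p30, 12 lower in preGM fl/p30, and 1 higher and 0 lower between the controls. The replicate block by label number gave 5 lower in GMP fl/p30, 1 lower in fl/BRM2 and 2 lower between the controls, whereas numbers pair only the fl/p30 samples. The block by animal changed no count of members by over 1.5 times. Among all genes it called 366 higher and 315 lower between the fl/p30 stages, against 71 and 57 in the main fit. For the stage dependence it called 69 higher and 7 lower among all genes, against 1 and 0. The filter on dim genes gave 1 lower in preGM fl/p30. Leaving out both arrays of the mouse of fl/p30 replicate 1, an alternative chosen after seeing the data, gave 1 lower in GMP fl/p30 (median -0.0139), 1 lower in preGM fl/p30, and a median of 0.0868 against fl/BRM2. It also gave 2 lower (Cdc45 and Pold1) in fl/BRM2 against fl/+, and 10 lower and 2 higher between the controls, through the pooled spread alone. Near 0, Ccne2 in preGM fl/p30 turned to 0.0182 with array weights and Rfc2 to -0.0245 with centring. Leaving out 1 array at a time gave 0 to 8 lower, 0 to 2 higher and medians from -0.404 to -0.0139 in GMP fl/p30. It gave 0 to 3 lower and 0 to 2 higher in fl/BRM2, 0 to 2 lower in preGM fl/p30, 0 to 14 lower between the controls and 0 to 6 higher for the stage dependence. Medians ran from -0.248 to 0.0868 against fl/BRM2 and from -0.17 to 0.23 between the fl/p30 stages. Fen1 in GMP fl/p30 ran from -0.0579 to 0.842, and in preGM fl/p30 Rfc2 ran from -0.0819 to 0.124 and Ung from -0.156 to 0.0177. The cause of these changes was not tested.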
